A study of Mus musculus with 31 samples.

Results

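The respiratory chain of the inner mitochondrial membrane was followed in mouse liver through 87 nuclear genes that code for its subunits, their tissue isoforms and factors that assemble complex I. Members were the genes whose only annotated symbol begins with Ndufa, Ndufb, Ndufc, Ndufs, Ndufv, Uqcr, Cox4 to Cox8 or Atp5, or is Sdha, Sdhb, Sdhc or Sdhd, with annotated pseudogenes left out. They make up 87 of the 22180 genes tested. They comprise 32 subunit genes of complex I, 8 complex I assembly factors, 4 subunit genes of complex II, 7 of complex III, 10 of complex IV, 7 complex IV isoforms of muscle, lung or testis, 17 subunit genes of complex V, and Cox7a2l and Ndufa4l2, relatives of complex IV subunits.

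Livers came from 31 male C57BL/6 mice of 3 to 4 months, 1 array per mouse, collected in the morning. The groups, named by their sequence of states, were Fed-Fed-Fast (n = 8, a 16 h fast before sampling and 0 earlier fasts), Fed-Fed-Fed (n = 8, fed at sampling, 0 earlier fasts), Fast-Fast-Fast (n = 7, a 16 h fast before sampling and 2 earlier fasts of 16 h within 8 weeks) and Fast-Fast-Fed (n = 8, fed at sampling, 2 earlier fasts). The design asks how a fast changes liver transcripts and whether earlier fasts leave a trace. Values are RMA log2 signals of Affymetrix arrays, on which a difference of 1 is a 2-fold change.

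Complexes I and II pass electrons from NADH and succinate to ubiquinone, complex III passes them on to cytochrome c, and complex IV hands them to oxygen. The proton gradient built on the way drives the ATP synthase, also called complex V. In a fasted liver, fatty acid oxidation delivers much of the NADH and reduced flavin that enter this chain.

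Known fasting genes moved with the labelled final state. Cyp4a14, a fatty acid hydroxylase, was 5.997 higher on the log2 scale in fasted than in fed mice, and Fasn, the fatty acid synthase, fell by 3.14 (limma, mean of the responses after 0 and 2 earlier fasts, adjusted p = 8.44e-15 and 2.16e-17). All 8 hepatocyte markers together summed to linear signals of 35580 to 38190 on fasted and 34980 to 37170 on fed arrays, while 10 markers of skeletal and heart muscle summed to 30.5 to 42.3 and 31.2 to 39.5. Of these 8, Serpina1a, Cyp2e1 and Tat rose and Ttr fell in the averaged response. Markers of other liver cells moved with the final fast: 6 of 7 Kupffer cell markers fell in the averaged response, and their sum ran from 196 to 484 in Fed-Fed-Fast against 294 to 741 in Fed-Fed-Fed mice, and from 210 to 422 in Fast-Fast-Fast against 241 to 579 in Fast-Fast-Fed mice. Of 5 stellate cell markers 2 fell (Lrat by 0.64, Col3a1 by 1.00), with summed signals of 557 to 953.5 in fasted and 532 to 787 in fed mice. Of 5 endothelial markers Lyve1 rose by 0.997 and 2 fell, with sums of 544 to 797 in fasted and 641 to 969 in fed mice. Of 4 lymphocyte markers only Ptprc was called, and it fell by 0.56. Cd3e, Cd3g and Cd79a were dim, at signals of 1.22 to 2.91, and were not called (-0.09, -0.18 and 0.02). The sums, 26.6 to 50.9 in fasted and 37.0 to 61.4 in fed mice, therefore rest mainly on Ptprc. The part of these cells in the results was not tested. In whole liver, fewer cells of a type and less RNA per cell cannot be told apart.

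Of the 31 arrays, 2 stood apart, both of Fed-Fed-Fast mice. On replicate 4, markers of brown adipocytes were high: Ucp1, the uncoupling protein of brown fat, was at 6.78 against 1.31 to 1.97 on the other 30 arrays, Cidea at 5.48 against 1.36 to 2.64, Adipoq at 2.70 against 1.04 to 1.80 and Plin1 at 3.22 against 1.38 to 2.41, while Elovl3, which liver also expresses, was at 10.70, inside the range of the others. Replicate 1 had the lowest signal of all 31 arrays in 15 of the 87 members, where no other array had it in more than 8. The part of either array in the results was not tested beyond leaving it out. Without replicate 4, 11 members rose and 11 fell in the averaged response, and Ndufaf8 and Uqcr11 lost their calls. Without replicate 1, 14 rose and 11 fell: Cox5a and Ndufaf8 lost their calls, and Ndufab1, Sdhd and Uqcrfs1 gained one.

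The final fast moved respiratory chain genes in both directions and by small amounts. In the response averaged over both histories, 12 members rose and 12 fell out of 87 (limma, Benjamini-Hochberg adjusted p under 0.05), which is 27.6% of members. The same call took 19.1% of all genes, 9.79% higher and 9.36% lower. The averaged log2 changes of the members ran from -0.43 to 0.37 with a median of 0.02, against a median of -0.002 over all genes. None of the 87 passed with a change beyond 0.5 log2 units (1.41-fold), while 5.07% of all genes did.

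Signal strength bears on these shares. Of 72 members whose mean signal was 4 or more, 26 passed when the fit was confined to genes of that strength, 16 higher and 10 lower, or 36.1%, against 49.3% of all 7863 such genes. A change beyond 0.5 was called for 0 of the 72 members and for 11.8% of the 7863 genes. The median absolute change was 0.09 in these members and 0.15 in all such genes, and the median SD within groups was 0.13 and 0.19. The 95% interval of the averaged change stayed within 0.5 either way for 84 of 87 members, the exceptions being Ndufaf5, Ndufaf6 and Cox6b2, and within 0.25 (1.19-fold) for 51.

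**Figure D1:**
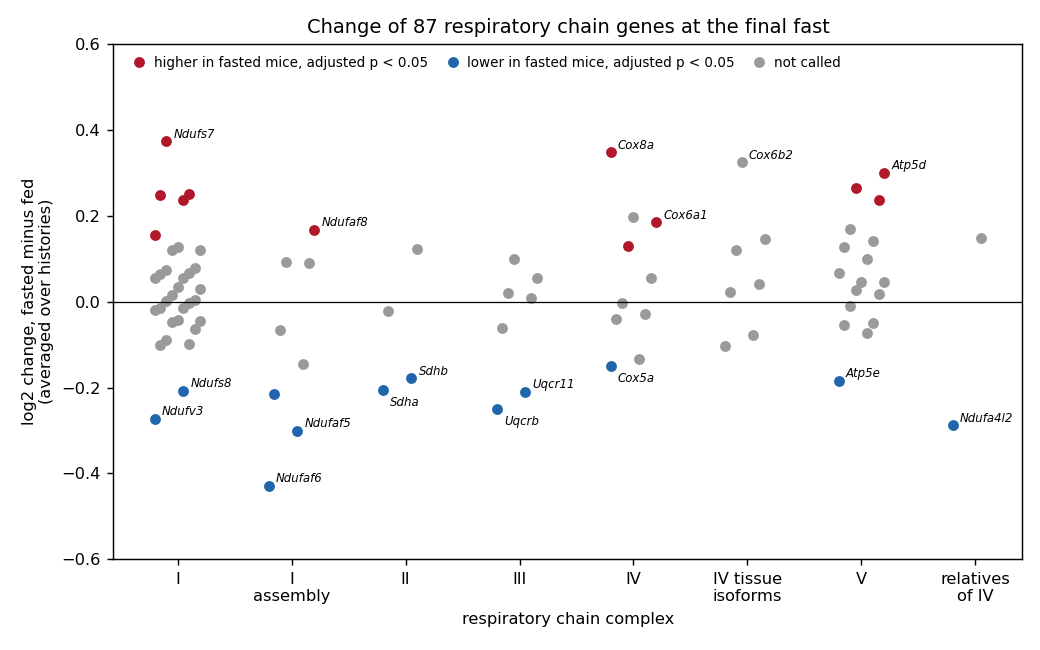
Averaged log2 change at the final fast (fasted minus fed, y axis) of each of the 87 genes, one point per gene, by complex (x axis); red and blue points passed at an adjusted p under 0.05. Called genes lie on both sides of 0 in complexes I, IV and V, on the lower side alone in II and III (with all 31 arrays), and at most 0.43 from 0.

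The responses after 0 and after 2 earlier fasts rest on different mice. After 0 earlier fasts, 8 members rose and 5 fell, 14.9% of members against 12.5% of all genes (6.25% higher, 6.23% lower). After 2 earlier fasts, 7 rose and 3 fell, 11.5% of members against 11.6% of all genes (6.06% higher, 5.52% lower). These shares are close to those of all genes. Atp5d, Atp5h, Ndufb7 and Ndufs7 rose in both responses, and Ndufaf6 and Sdha fell in both. The sign of the change was shared by both responses in 65 members (74.7%) and in 65.8% of all genes. The count of 8 that rose after 0 earlier fasts dropped to 3 when only the 16 arrays compared were fitted, and to 4 or 5 without any one of 8 arrays, namely Fed-Fed-Fast replicates 2 and 5 and Fed-Fed-Fed replicates 2, 3, 4, 5, 6 and 8. Of the 13 calls after 0 earlier fasts, 6 were kept without any one array (Atp5g3, Ndufa4l2, Ndufaf6, Ndufs7, Ndufs8 and Sdha) and 7 were lost without at least 1; after 2 earlier fasts, 8 of 10 were kept.

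**Figure D2:**
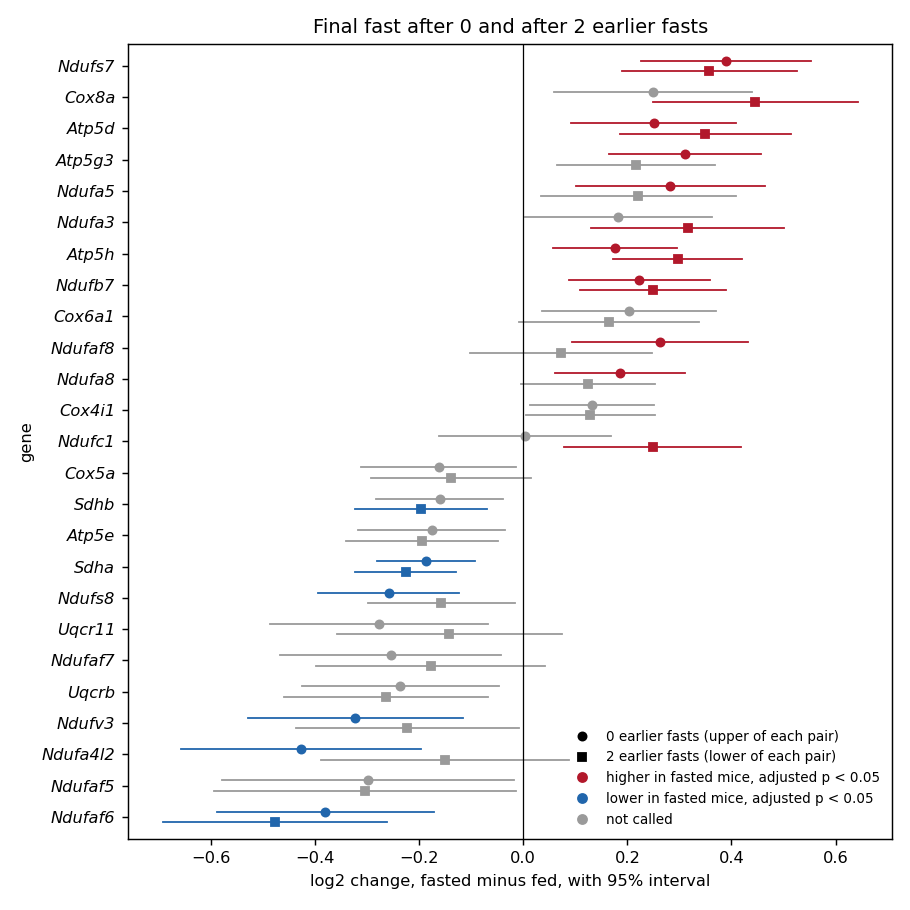
Log2 change (x axis, fasted minus fed, with 95% intervals) after 0 earlier fasts (circles) and after 2 earlier fasts (squares) for the 25 members called in the averaged response or in either response (y axis). Each of the 25 genes has both estimates on the same side of 0, with Ndufc1 next to 0 after 0 earlier fasts.

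Promoters of respiratory chain genes are known for sites of the transcription factors NRF1, YY1 and GABP, an ETS factor also called NRF2. RefSeq (GRCm38.p6) gave at least 1 promoter of 300 bases, from 250 before to 50 after the start, for 72 of the 87 members and for 16918 of the genes tested. These were searched on both strands for GCGCANGCG (NRF1), CCGGAAGT (ETS), AAGATGGC (YY1), TCAAGGTCA (an element bound by estrogen-related receptors) and TGACGTCA (the cyclic AMP response element), with overlapping matches allowed. The NRF1 letters occurred in 27.8% of members and 9.72% of all genes, the ETS letters in 6.94% and 5.64%, the YY1 letters in 13.9% and 3.65%, the receptor element in 2.78% and 0.366% and the cyclic AMP element in 4.17% and 2.64%. Among those with a promoter, at least 1 of the first 3 motifs was held by 45.8% of members and 17.1% of all genes. By averaged call, it was held by 9 of 11 members that rose, 3 of 9 that fell and 21 of 52 not called. These counts describe letters in a window, with no test. The 250 bases before the start are shown for 2 members that rose, Atp5h and Cox6a1, and 2 that fell, Sdha and Uqcr11, because the same motif letters stand before genes that moved in opposite directions; capitals mark NRF1 and ETS matches.
Atp5h (chr11:115419920-115420169, - strand): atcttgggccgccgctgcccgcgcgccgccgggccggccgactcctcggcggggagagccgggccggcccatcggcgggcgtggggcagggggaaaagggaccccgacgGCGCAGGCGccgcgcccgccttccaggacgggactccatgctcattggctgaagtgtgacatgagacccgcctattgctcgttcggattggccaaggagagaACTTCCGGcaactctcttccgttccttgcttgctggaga
Cox6a1 (chr5:115348959-115349208, - strand): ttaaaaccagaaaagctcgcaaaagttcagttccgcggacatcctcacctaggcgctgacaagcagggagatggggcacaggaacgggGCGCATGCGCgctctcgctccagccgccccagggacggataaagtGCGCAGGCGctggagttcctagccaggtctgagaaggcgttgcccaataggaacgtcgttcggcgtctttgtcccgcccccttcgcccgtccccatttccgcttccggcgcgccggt
Sdha (chr13:74350241-74350490, - strand): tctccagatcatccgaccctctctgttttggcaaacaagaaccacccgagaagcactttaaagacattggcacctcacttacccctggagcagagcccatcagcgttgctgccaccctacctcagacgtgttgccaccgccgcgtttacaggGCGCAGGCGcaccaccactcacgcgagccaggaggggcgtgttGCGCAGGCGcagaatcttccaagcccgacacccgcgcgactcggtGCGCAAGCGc
Uqcr11 (chr10:80406822-80407071, - strand): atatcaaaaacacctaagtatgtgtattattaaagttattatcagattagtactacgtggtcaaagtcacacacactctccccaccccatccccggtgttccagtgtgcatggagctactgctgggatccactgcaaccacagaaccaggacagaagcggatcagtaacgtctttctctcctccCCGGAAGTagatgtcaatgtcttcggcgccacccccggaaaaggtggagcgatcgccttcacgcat
Sdha, which fell, held 3 NRF1 matches in the shown bases. Cox6a1, which rose, also held 3, of which those in the first capital stretch overlap on opposite strands. Atp5h held 1 NRF1 and 1 ETS match, and Uqcr11 held 1 ETS match.

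Complex I, the NADH dehydrogenase, had 5 subunit genes higher and 2 lower out of 32 in the averaged response. This is 21.9%, and 25 were not called. The share called was 19.1% of all genes and 49.3% of genes with a mean of 4 or more, fitted apart. The core subunits of complex I carry the electron path. Ndufs7, whose product holds the last iron-sulfur cluster before ubiquinone, had signals of 9.29, 9.35 and 9.45 (lowest, median, highest) in Fed-Fed-Fast against 8.66, 8.94 and 9.26 in Fed-Fed-Fed mice, and 9.12, 9.29 and 9.48 in Fast-Fast-Fast against 8.64, 8.94 and 9.23 in Fast-Fast-Fed mice. With 0 earlier fasts every fasted mouse was above every fed mouse; with 2 earlier fasts the groups overlapped. The averaged change was 0.37 (SE 0.06, 1.30-fold, adjusted p = 4.77e-06), made of 0.39 after 0 and 0.36 after 2 earlier fasts.

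Ndufs8 moved the other way, although its product is another iron-sulfur subunit of the same arm. Its signals were 8.14, 8.30 and 8.52 in Fed-Fed-Fast against 8.33, 8.59 and 8.72 in Fed-Fed-Fed mice, and 8.18, 8.45 and 8.59 in Fast-Fast-Fast against 8.43, 8.57 and 8.66 in Fast-Fast-Fed mice. Fasted mice lay lower, with overlap in both histories. The averaged change was -0.21 (SE 0.05, adjusted p = 0.00132); after 2 earlier fasts alone, -0.16 did not pass (adjusted p = 0.161). The other 4 core genes measured, Ndufs1, Ndufs3, Ndufv1 and Ndufv2, were not called in any of the 3 comparisons of the final fast, with averaged changes of -0.05, -0.10, 0.06 and 0.07.

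Among 26 accessory subunit genes, 4 rose and 1 fell in the averaged response (19.2%, beside 19.1% of all genes). Ndufa5, of the peripheral arm, rose by 0.25 (SE 0.06, adjusted p = 0.00358), Ndufa3, of the membrane arm, by 0.25 (SE 0.06, adjusted p = 0.00345), and Ndufa8, on the intermembrane side, by 0.15 (SE 0.04, adjusted p = 0.00984). Averaging both probe sets of Ndufa8 gave 0.13 and no call (adjusted p = 0.073). Ndufb7, also on the intermembrane side, had signals of 5.47, 5.59 and 5.70 in Fed-Fed-Fast against 5.16, 5.35 and 5.61 in Fed-Fed-Fed mice, and 5.42, 5.56 and 5.83 in Fast-Fast-Fast against 5.10, 5.33 and 5.43 in Fast-Fast-Fed mice. Fasted mice were mostly higher, with overlap, and the averaged change was 0.24 (SE 0.05, adjusted p = 0.000289). Without Fed-Fed-Fed replicate 8, the call of Ndufb7 after 0 earlier fasts was lost (adjusted p = 0.0562). Ndufv3, a small subunit of the NADH-oxidizing module, fell by 0.27 (SE 0.07, adjusted p = 0.0057). Ndufc1, of the membrane arm, rose after 2 earlier fasts by 0.25 (adjusted p = 0.049), a call lost without any one of 24 of the 31 arrays, while its change after 0 earlier fasts was 0.004; the difference between these responses had an adjusted p of 0.9994. The other 21 accessory genes were not called in the averaged response. The probe set of Ndufb9 was the brightest of the complex and that of Ndufs5 the dimmest. Ndufb9, of the membrane arm, had signals of 10.81 to 11.08 in fasted and 10.78 to 11.06 in fed mice, and an averaged change of 0.03 (SE 0.04, adjusted p = 0.693) with a 95% interval of -0.05 to 0.11. The probe set of Ndufs5 had signals of 1.21 to 2.34 in fasted and 1.07 to 2.68 in fed mice, near the array median. Its change was 0.002 (SE 0.12, adjusted p = 0.994). A brighter probe set, annotated to both Ndufs5 and the pseudogene Ndufs5-ps, was left out by the rule. It had 5.83 to 6.99 in fasted and 6.45 to 7.29 in fed mice, and changed by -0.22 without a call (limma, adjusted p = 0.307).

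Of the 8 assembly factors of complex I, 3 fell and 1 rose in the averaged response (50%, beside 19.1% of all genes). Among all genes with a mean of 4 or more, fitted apart, 49.3% passed. Ndufaf6, required for an early step of assembly, had signals of 4.12, 4.43 and 4.77 in Fed-Fed-Fast against 4.52, 4.81 and 5.09 in Fed-Fed-Fed mice, and 4.12, 4.42 and 4.82 in Fast-Fast-Fast against 4.70, 4.83 and 5.23 in Fast-Fast-Fed mice. The groups overlapped, and in both histories the median of fasted mice lay below every fed mouse. Its averaged change, -0.43 (SE 0.07, adjusted p = 2.88e-05), was the farthest from 0 among the 87 members. Ndufaf5, which hydroxylates the Ndufs7 protein in human cells, fell by 0.30 (SE 0.10, adjusted p = 0.0282). Its signals were dim, at 1.92 to 2.73 in fasted and 2.12 to 3.42 in fed mice, near the array median. Ndufaf7, a methyltransferase acting on complex I, fell by 0.22 (adjusted p = 0.039), and Ndufaf8, which stabilizes Ndufaf5 in human cells, rose by 0.17 (adjusted p = 0.0456). The last 3 calls were fragile: they were lost without any one of 3 arrays for Ndufaf5 (Fast-Fast-Fast replicate 6, Fast-Fast-Fed replicate 1 or Fed-Fed-Fast replicate 5, adjusted p up to 0.06), of 17 for Ndufaf7 (up to 0.0784) and of 22 for Ndufaf8 (up to 0.0765).

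Complex II, the succinate dehydrogenase of the citric acid cycle, had its catalytic pair lower in fasted liver. Sdha, the flavoprotein that oxidizes succinate, had signals of 10.03, 10.12 and 10.18 in Fed-Fed-Fast against 10.17, 10.29 and 10.37 in Fed-Fed-Fed mice, and 10.01, 10.05 and 10.16 in Fast-Fast-Fast against 10.25, 10.30 and 10.35 in Fast-Fast-Fed mice. With 2 earlier fasts no fasted mouse reached a fed one, and with 0 earlier fasts the ranges met only at their ends. The averaged change was -0.21 (SE 0.03, adjusted p = 1.05e-05), -0.19 after 0 and -0.23 after 2 earlier fasts. Sdhb, the iron-sulfur subunit, fell by 0.18 (SE 0.04, adjusted p = 0.00213), with 7.79 to 8.19 in fasted and 8.06 to 8.34 in fed mice; its call after 2 earlier fasts (-0.20, adjusted p = 0.0329) was lost without any one of 6 arrays (adjusted p up to 0.11). The membrane anchors did not pass: Sdhc changed by -0.02 and Sdhd by 0.12 (adjusted p = 0.845 and 0.0525). Without Fed-Fed-Fast replicate 1, Sdhd was called higher, at 0.14 (adjusted p = 0.00959).

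Complex III, which carries electrons from ubiquinol to cytochrome c, had 2 genes lower and 0 higher out of 7 in the averaged response. This is 28.6%, beside 19.1% of all genes. All genes of the complex had a mean of 4 or more, and 49.3% of all such genes passed when fitted apart. In either response alone 0 were called, where 2 and 1 had an unadjusted p under 0.05. Uqcrb, a small subunit near the ubiquinone site, had signals of 10.09, 10.54 and 10.69 in Fed-Fed-Fast against 10.41, 10.73 and 11.06 in Fed-Fed-Fed mice, and 10.37, 10.60 and 10.63 in Fast-Fast-Fast against 10.40, 10.80 and 11.18 in Fast-Fast-Fed mice. The ranges overlapped, and the averaged change was -0.25 (SE 0.07, adjusted p = 0.00558). Uqcr11, the smallest subunit, fell by 0.21 (SE 0.07, adjusted p = 0.0419), a call lost without any one of 17 arrays (adjusted p up to 0.0809). The core proteins Uqcrc1 and Uqcrc2 (0.06 and 0.02), the Rieske iron-sulfur protein Uqcrfs1 (0.10), the hinge protein Uqcrh (0.01) and Uqcrq (-0.06) were not called. Uqcrq, the dimmest of the complex, had signals of 4.02 to 4.56 in fasted and 4.00 to 4.63 in fed mice (SE 0.06, adjusted p = 0.583). Without Fed-Fed-Fast replicate 1, Uqcrfs1 was called higher, at 0.14 (adjusted p = 0.0208). These counts leave out 2 probe sets that were higher in fasted mice and whose annotation joins a complex III symbol to a predicted gene, Uqcr10 with Gm6293 (0.37, limma, adjusted p = 0.000106) and Uqcrb with Gm10767 (0.40, adjusted p = 0.0306). Which transcript they measure is not settled by the annotation, and the second runs opposite to the probe set of Uqcrb alone. That second set is dim, with signals of 2.26 to 3.50 in fasted and 1.75 to 3.05 in fed mice.

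Complex IV, the cytochrome c oxidase, had 3 genes higher and 1 lower out of 10 in the averaged response (40%, beside 19.1% of all genes). Its 10 genes all had a mean of 4 or more, and 49.3% of all such genes passed when fitted apart. Cox8a had signals of 9.65, 9.82 and 10.06 in Fed-Fed-Fast against 9.22, 9.60 and 9.82 in Fed-Fed-Fed mice, and 9.65, 9.74 and 9.97 in Fast-Fast-Fast against 8.97, 9.27 and 9.71 in Fast-Fast-Fed mice. Fasted mice were higher with overlap in both histories. Its change was 0.25 after 0 earlier fasts (adjusted p = 0.0805) and 0.45 after 2 (adjusted p = 0.00119), and 0.35 averaged (SE 0.07, 1.27-fold, adjusted p = 0.000149). Cox6a1 rose by 0.18 (SE 0.06, adjusted p = 0.023), with signals of 11.37 ± 0.12 in Fed-Fed-Fast against 11.17 ± 0.24 in Fed-Fed-Fed mice, and 11.33 ± 0.09 in Fast-Fast-Fast against 11.16 ± 0.14 in Fast-Fast-Fed mice. Cox4i1, the common isoform of subunit IV, rose by 0.13 (SE 0.04, adjusted p = 0.0252). Cox5a fell by 0.15 (SE 0.05, adjusted p = 0.04), a call lost without any one of 14 arrays (adjusted p up to 0.077). Cox5b, Cox6b1, Cox7a2, Cox7b, Cox7c and Ndufa4, once counted with complex I and now placed in complex IV, were not called, with changes of 0.20, -0.13, 0.06, -0.003, -0.03 and -0.04. Cox7c, the dimmest of the complex, had signals of 4.00 to 4.83 in fasted and 3.92 to 4.95 in fed mice (SE 0.08, adjusted p = 0.887).

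Isoforms that other tissues use were dim in every group, with an exception on 1 array. Mean signals were 1.69 for the lung isoform Cox4i2, 2.33, 2.76 and 1.20 for the muscle isoforms Cox6a2, Cox7a1 and Cox8b, and 2.11, 1.31 and 1.16 for the testis isoforms Cox6b2, Cox7b2 and Cox8c, where the median over probe sets was 2.01 to 2.07 per array. On Fed-Fed-Fast replicate 4, the array with high brown adipocyte markers, Cox8b was at 3.55 against 0.75 to 1.64 on the other 30 arrays and Cox7a1 at 3.603 against 2.01 to 3.28; both isoforms are also used in brown fat. Their averaged changes were 0.15 and -0.08 with this array and -0.01 and -0.15 without it, none called (adjusted p = 0.639, 0.736, 0.976 and 0.324), while the muscle genes Acta1 and Ckm were at 1.98 and 1.65 on it, within or below the range of the others. None of the 7 was called in the final-fast comparisons, and 1 had an unadjusted p under 0.05 in the averaged response; Cox6b2 had the largest change among them, 0.32 (adjusted p = 0.0718). Of the relatives, Ndufa4l2, known as a target of hypoxia signalling, fell by 0.29 (SE 0.08, adjusted p = 0.00916). Its signals were dim, at 1.89 to 2.74 in fasted and 2.01 to 3.00 in fed mice, near the array medians. Cox7a2l, the other relative, changed by 0.15 (adjusted p = 0.11).

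Complex V, the ATP synthase, had 3 genes higher and 1 lower out of 17 in the averaged response (23.5%, beside 19.1% of all genes). For all genes with a mean of 4 or more, fitted apart, the share was 49.3%. Atp5d, the delta subunit of the central stalk, had signals of 6.75, 6.83 and 6.94 in Fed-Fed-Fast against 6.25, 6.62 and 6.93 in Fed-Fed-Fed mice, and 6.68, 6.86 and 7.04 in Fast-Fast-Fast against 6.31, 6.45 and 6.82 in Fast-Fast-Fed mice. Most fed mice lay below every fasted mouse of their history. The averaged change was 0.30 (SE 0.06, adjusted p = 9.17e-05), and the call after 0 earlier fasts (0.25, adjusted p = 0.0272) was lost without any one of 5 arrays (up to 0.0804). Atp5e, the epsilon subunit that sits beside delta in the same stalk, fell by 0.18 (SE 0.05, adjusted p = 0.00619); averaging both of its probe sets gave -0.15 and no call (adjusted p = 0.0742).

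Atp5h, subunit d of the peripheral stalk, had signals of 10.20, 10.26 and 10.41 in Fed-Fed-Fast against 9.95, 10.13 and 10.34 in Fed-Fed-Fed mice, and 10.17, 10.29 and 10.44 in Fast-Fast-Fast against 9.86, 9.99 and 10.09 in Fast-Fast-Fed mice. With 2 earlier fasts the groups did not overlap, and with 0 they did. Its averaged change was 0.24 (SE 0.04, adjusted p = 4.75e-05), or 0.40 with the mean of its probe sets, since its second probe set changed by 0.57. Atp5g1, Atp5g2 and Atp5g3 code for the same mature ring subunit c. Atp5g3 rose by 0.26 (SE 0.05, adjusted p = 0.000175), with 8.02 ± 0.13 in Fed-Fed-Fast against 7.71 ± 0.16 in Fed-Fed-Fed mice, and 8.00 ± 0.09 in Fast-Fast-Fast against 7.78 ± 0.13 in Fast-Fast-Fed mice. Atp5g1 and Atp5g2 were not called, at 0.10 (adjusted p = 0.685) and 0.14 (adjusted p = 0.12). The catalytic head genes Atp5a1 and Atp5b changed by 0.05 and 0.02; for Atp5b, at 11.25 ± 0.05 in Fed-Fed-Fast, 11.22 ± 0.07 in Fed-Fed-Fed, 11.22 ± 0.04 in Fast-Fast-Fast and 11.22 ± 0.04 in Fast-Fast-Fed mice, the 95% interval of the averaged change was -0.05 to 0.08. Atp5j2, the dimmest of the complex, had signals of 2.14 to 3.11 in fasted and 2.02 to 3.65 in fed mice and a change of 0.04 (SE 0.12, adjusted p = 0.873).

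**Figure D3:**
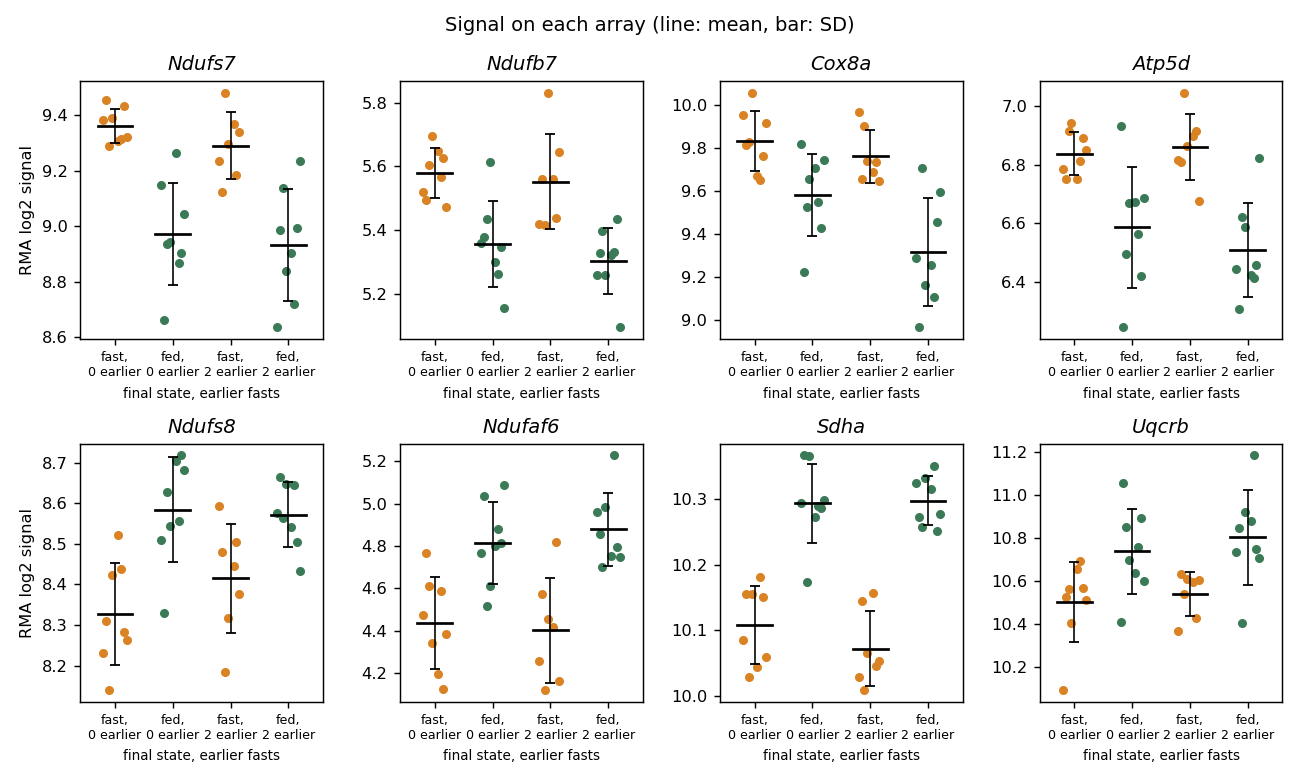
RMA log2 signal (y axes, each gene on its own scale) on each of the 31 arrays for 4 members that rose (upper row) and 4 that fell (lower row), with fasted mice (orange) left of fed mice (green) of the same history; lines are means and bars SD. Sdha in mice with 2 earlier fasts shows no overlap (10.01 to 10.16 in fasted, 10.25 to 10.35 in fed mice), while Uqcrb overlaps in both histories.

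As means over the genes of a complex, complex V averaged 7.33 ± 0.04 in Fed-Fed-Fast against 7.27 ± 0.04 in Fed-Fed-Fed mice and 7.34 ± 0.04 in Fast-Fast-Fast against 7.26 ± 0.04 in Fast-Fast-Fed mice (SD over arrays). Complex II averaged 8.76 ± 0.07 in Fed-Fed-Fast against 8.82 ± 0.04 in Fed-Fed-Fed mice, and 8.77 ± 0.05 in Fast-Fast-Fast against 8.85 ± 0.04 in Fast-Fast-Fed mice. For the subunits of each complex, with core and accessory apart in complex I, these means lie within 0.1 of each other. The complex I assembly factors spread wider: 4.86 ± 0.05 in Fed-Fed-Fast against 4.94 ± 0.12 in Fed-Fed-Fed mice, and 4.84 ± 0.07 in Fast-Fast-Fast against 4.96 ± 0.09 in Fast-Fast-Fed mice. No test is attached to any of these means.

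Earlier fasts left no called change in these genes. The comparison of 2 with 0 earlier fasts called 0 of 87 members in fasted mice, 0 in fed mice and 0 averaged over both states, and the interaction called 0; over all genes the shares were also 0%, 0%, 0% and 0% (limma). At an unadjusted p under 0.05 there were 3, 5, 2 and 5 members, or 3.45, 5.75, 2.3 and 5.75%, against 4.49, 5.61, 5.34 and 4.61% of all genes. The lowest-ranked p-values, picked out after they were seen, belonged to Ndufb3 in fasted mice (log2 difference 0.27, limma adjusted p = 0.9998), Cox8a in fed mice (-0.26, adjusted p = 0.838) and Atp5g1 in the interaction (-0.66, adjusted p = 0.9994). For the history difference averaged over both states, the 95% interval stayed within 0.25 either way for 72 of 87 members and within 0.5 for 86. The other comparisons were bounded less tightly. Intervals stayed within 0.25 for 56 members in fasted mice, 54 in fed mice and 25 in the interaction. For a limit of 0.5 these counts were 85, 85 and 75.

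The 10 genes of the mitochondrial genome that were measured, ND1 to ND6, ND4L, CYTB, COX1 and COX3, code for the membrane core of complexes I, III and IV. None was called in the final fast, 0 had an unadjusted p under 0.05, and their averaged changes ran from -0.10 to -0.01. Some genes around the chain changed by more than any member did. Beside the 19.1% of all genes called, the shares called were 40.5% of 42 assembly factors beyond the rule, 47.6% of 21 electron carriers and entry points, 61.5% of 13 citric acid cycle genes, 38.5% of 13 carriers, channels and inhibitors and 36% of 25 regulators. Among genes with a mean of 4 or more they were 51.3% of 39, 60% of 20, 61.5% of 13, 85.7% of 7 and 50% of 20, beside 49.3% of all such genes. Of the 42 assembly factors, 10 rose and 7 fell, among them Coa6, a copper delivery factor of complex IV, by 0.60, and Uqcc3, a complex III factor, by 0.57, while Acad9 and Timmdc1, both needed to assemble complex I, fell by 0.36 and 0.34 (adjusted p at most 0.00012 for these 4). Of 21 genes of electron carriers and entry points, 5 rose and 5 fell. Etfdh, which passes electrons of fatty acid oxidation to ubiquinone, rose by 0.76 (SE 0.04, adjusted p = 9.27e-16), with 10.33 to 10.64 in fasted against 9.61 to 9.99 in fed mice and no overlap. Cycs, the gene of cytochrome c, rose by 0.39, with 9.99 to 10.34 in fasted against 9.50 to 9.95 in fed mice, again without overlap. Sqor, which oxidizes sulfide, fell by 0.76, and Coq8a, of ubiquinone synthesis, by 0.72.

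Of 13 citric acid cycle genes, 7 rose and 1 fell. Dlst and Ogdh, of the 2-oxoglutarate dehydrogenase, rose by 0.64 and 0.53, Fh1, the fumarase that follows complex II in the cycle, by 0.47, and Mdh2 by 0.38, while Cs, citrate synthase, fell by 0.37. Of 13 carriers, channels and inhibitors, 3 rose and 2 fell: Atpif1, the inhibitor protein of the ATP synthase, fell by 0.54 (SE 0.07, adjusted p = 2.74e-07), with 5.70 to 6.26 in fasted and 6.10 to 6.99 in fed mice, and Nnt, the transhydrogenase, rose by 0.53. Of 25 regulators of mitochondrial genes, 8 rose and 1 fell, with Ppargc1a, a coactivator of respiratory genes, higher by 0.65 (SE 0.16, adjusted p = 0.00227), Ppara by 0.50 and the protease gene Lonp1 lower by 0.21. No test was made on a list as a whole.

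**Figure D4:**
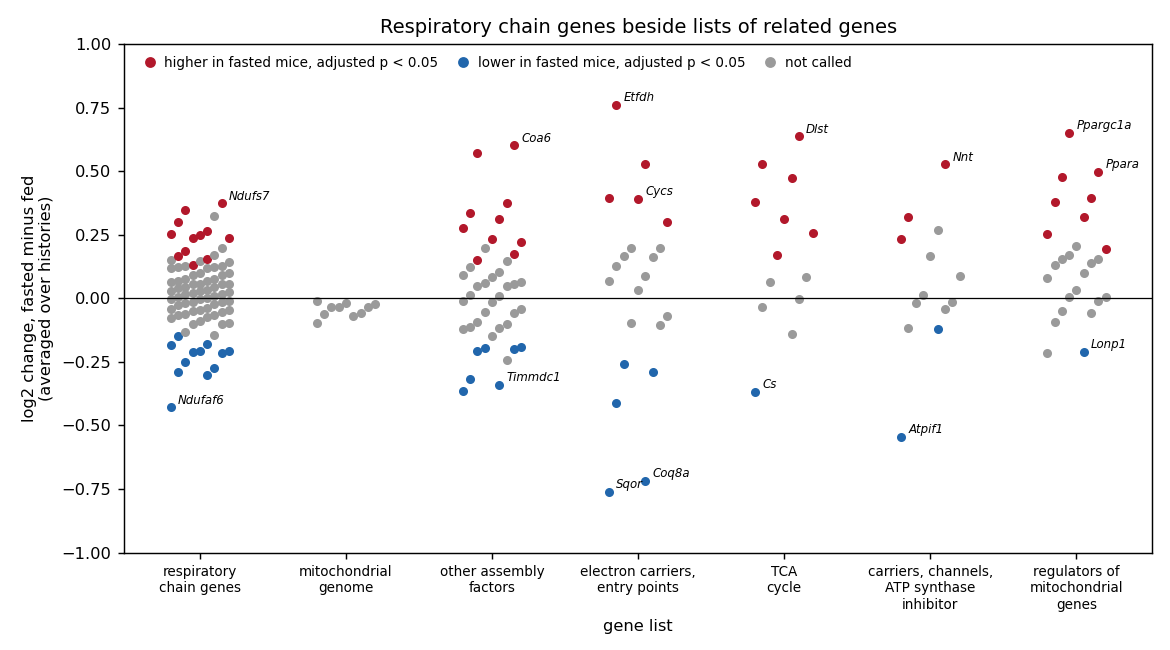
Averaged log2 change at the final fast (y axis, fasted minus fed) of the 87 respiratory chain genes and of the genes of 6 related lists (x axis), one point per gene; red and blue points passed at an adjusted p under 0.05. The respiratory chain genes lie between -0.43 and 0.37 and the mitochondrial genome between -0.10 and -0.01, while electron carriers reach from -0.76 to 0.76.

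Of the 87 members, 9 had a second probe set. The second sets of Atp5d and Atp5h were higher in fasted mice, by 0.38 (adjusted p = 0.00337) and 0.57 (SE 0.08, adjusted p = 1.5e-05), the same direction as the first sets; for Atp5h they ran from 3.98 to 4.75 in fasted and 3.32 to 4.05 in fed mice. The other 7 second sets were not called. On mouse chromosome 10 (GRCm38.p6, RefSeq), Atp5d and Ndufs7 lie 103 kb apart and both rose, while Uqcr11, 146 kb beyond Ndufs7, fell.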

How the data were processed

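RNA of 31 mouse livers was hybridized to Affymetrix whole-transcript arrays, 1 per mouse. The authors deposited RMA signals on a log2 scale, per the submitters' processing notes; RMA corrects background, normalizes quantiles and summarizes probe sets, and no version was stated. Signals lay between -0.0139 and 13.1, array medians between 2.01 and 2.07, and Pearson's r between arrays (across all probe sets) between 0.965 and 0.983. The labels name no batch. The values carry no detection call, so dim genes were treated only by a filter, and precision rests on how many arrays each group has.

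Of 41345 probe sets, 23521 had 1 gene symbol in the platform annotation, 1814 several and 16010 none. The probe set with the highest mean stood for each of 22180 genes. All 4 group means were fitted together with limma 3.58.1 (R 4.3.3; the data.table package, version 1.17.8), and 7 comparisons were made: the final fast after 0 and after 2 earlier fasts and averaged, history in fasted and in fed mice and averaged, and the interaction. Genes were called 2-sided after Benjamini-Hochberg adjustment across the 22180 genes, at 0.05; folds are 2 to the power of the log2 change. The members, gene lists and markers were chosen with earlier results of these data known. Named members are those called in a response to the final fast, the isoform sets and members of high or low signal in a complex; from each list, called genes with large averaged changes. Alternatives changed the arrays fitted, replicate number as a block, the variance prior, scaling, probe set averaging and a filter on mean signals under 4, and left out each array. Marker sums are of linear signals. The fit was tested on simulated data whose planted changes were larger than any averaged change of a member. It therefore does not show how well changes of the size seen in members are recovered. Promoters are RefSeq sequences matched by gene identifier, and symbols of all 87 members were unchanged there. Plots used Python 3.11.15 and matplotlib 3.10.9.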

Additional observations from a re-analysis of the deposited data

Results flagged for a closer look

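Among 348 groups of arrays (87 members in 4 groups), 27 held an array far from the others of its group, where chance gives about 1 in 20 groups. Fed-Fed-Fast replicate 1 held 9 of these, 8 of them low, and no other array more than 2. It was low in Ndufs3 (3.99 against 4.61 to 4.85 in the other mice of that group), Ndufv1 (7.71 against 7.97 to 8.08), Sdhd (8.91 against 9.19 to 9.31), Uqcrc2 (9.14 against 9.28 to 9.40), Uqcrfs1 (5.07 against 5.61 to 5.83), Cox5a (7.42 against 7.74 to 7.89), Atp5pb (8.64 against 8.87 to 9.03) and Atp5mpl (7.63 against 7.89 to 8.12), and high in Atp5b (11.35 against 11.19 to 11.26). Fed-Fed-Fast replicate 4 was high in Cox7a1 (3.603 against 2.26 to 2.78) and Cox8b (3.55 against 0.88 to 1.37).

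In the other Fed-Fed-Fast mice, Ndufaf8 was low in replicate 3 (5.08) and Ndufa6 high in replicate 8 (8.48). In Fed-Fed-Fed mice, Ndufa7 was low in replicate 3 (4.91) and Ndufa9 in replicate 5 (8.17), while Ndufb11 was high in replicate 1 (4.17), Cox6b1 in replicate 6 (8.03) and Ndufa4 in replicate 2 (10.63). In Fast-Fast-Fast mice, replicate 2 was high in Ndufa13 (8.42) and Ndufc1 (5.44), and replicate 1 low in Cox8b (0.91) and Atp5g1 (2.07). In Fast-Fast-Fed mice, replicate 5 was low in Ndufs3 (4.51) and high in Atp5a1 (10.67), Ndufa7 was low in replicate 1 (4.72), Cox7a1 in replicate 8 (2.01), and Sdhd was high in replicate 3 (9.31).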

How the results depend on the processing

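No call of a member changed direction: of 349 values of called members under alternative processing, 328 kept their call, 21 lost it and 0 reversed, and with 1 array left out 1306 of 1457 kept it, 151 lost it and 0 reversed. Of 24 averaged calls, 19 were kept without any one array and 18 under every alternative. Counts depended more on the settings. Members higher after 0 earlier fasts numbered 3 with only the groups compared in the fit (8 with all arrays), members lower after 0 earlier fasts 8 without genes of mean under 4 (5 with them), and members lower after 2 earlier fasts 5 with replicate number as a block, 5 with cyclic loess and 6 without dim genes (3 as reported). The replicate block changed no other count by over 1.5 times. Same-numbered arrays of different groups had residuals correlated at -0.0643 to 0.116, over 0.1 in 3 pairs, so the numbers were not taken to pair mice. With 1 array left out, members higher numbered 4 to 9, 6 to 8 and 11 to 14 and members lower 4 to 6, 2 to 4 and 9 to 12 after 0 earlier fasts, after 2 and averaged, and 0 to 0 in the history comparisons and the interaction; over all genes, history called 0 to 1 in fasted and 0 to 1 in fed mice and the interaction 0 to 1. Scaling moved the median of all genes by at most 0.02. The causes were not tested. No limit of detection could be set for the 15 members with a mean under 4, and the number of arrays limits every value.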

Other observations

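The rule left out 10 probe sets whose annotation joins a symbol of the chain to another symbol, and 2 pseudogenes. Tested apart, over 19165 probe sets, 2 of the 10 were higher in fasted mice. Probe set 17260023 (annotated Uqcr10 and Gm6293) changed by 0.37 (SE 0.06, limma, adjusted p = 0.000106), with 6.24 to 6.56 in fasted against 5.60 to 6.26 in fed mice. Probe set 17293863 (annotated Uqcrb and Gm10767) changed by 0.40 (SE 0.11, adjusted p = 0.0306), with 2.26 to 3.50 in fasted against 1.75 to 3.05 in fed mice. The other 8 were not called, and none of the 10 is assigned to a gene here.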
